A study of Rattus norvegicus with 7 samples.

Results

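The genes described here are the potassium channel genes of the rat, those whose symbol starts with Kcn, as measured in whole brain of alcohol-preferring (P) and non-preferring (NP) rats. They were chosen by name alone: a transcript probe was a member when its accession was a RefSeq transcript of such a gene. This gave 80 probes for 61 genes, of 6046 genes that could be named on the array. Each gene is described by its probe with the highest mean signal over all arrays, and 59 of the 61 genes were tested. Kcnd2, a pore subunit of the A-type current, had a probe that was masked on all 7 arrays. Kcnj1, an inward rectifier best known from the kidney, was not well above background on any array. Another 36 rat genes with a Kcn symbol were not matched to a probe and were not analysed here.

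Whole brain RNA was taken from adult male rats, labelled as the Wistar strain, and each rat had its own 1-colour array. There were 4 P rats (P 1 to P 4) and 3 NP rats (NP 2 to NP 4). Both lines were made by selective breeding, all rats were doubly housed, and the series' title calls them alcohol naïve. The authors had dropped 1 further NP array for its quality. Whole brain RNA pools all regions and cell types, so fewer cells of a type and less RNA per cell cannot be told apart. Between 77.9% and 85.9% of the 33849 transcript probes were above background on an array. The files' headers carry a date without saying which step it marks: date 1 for NP 2, NP 3, P 1 and P 2, date 2 for NP 4, and date 3 for P 3 and P 4. Above background on all arrays were 7 of 7 tested astrocyte, 6 of 7 oligodendrocyte, 7 of 7 microglia and 3 of 4 neuron markers. So were 4 of 4 choroid plexus markers and 21770 of all 29003 tested probes, so these counts do not identify the tissue.

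Potassium channels set the resting potential of neurons and glia, end the action potential and shape firing rate. Voltage-gated (Kv) channels are built from pore subunits that open on depolarisation, with beta subunits, KCNE subunits and calcium-sensing KChIP proteins as partners. Inward rectifiers (Kir) and tandem-pore (K2P) channels carry current near rest. BK, SK and IK channels open with intracellular calcium, and Slack and Slick with sodium. The G protein-gated Kir channels and the BK channel are known as direct targets of ethanol.

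No Kcn gene passed the test between the lines over all 7 arrays. By limma, 0 of 59 genes had an adjusted p under 0.05, where 0.29% of all 29003 tested probes did. The smallest adjusted p was 0.23, for Kcnk12. At an unadjusted p under 0.05 there were 7 genes, 5 with a difference above 0 and 2 below. The share over all tested probes was 11.5% (5.7% above and 5.85% below). Of the 5674 tested named genes, 646 had such a p, 400 above 0 and 246 below. Every difference between the lines is P minus NP on the log2 scale of normalized intensity. These ran from -0.36 for Kcnb2 to 0.71 for Kcnk12, with a median of 0.08, against 0.03 over the 5674 tested named genes. Of the 59 genes, 39 had a difference above 0 (66.1%), as had 56.2% of the named genes. The median size of a difference, without its sign, was 0.15 for the Kcn genes and 0.14 for the named genes.

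The median SE of a Kcn gene's difference was 0.14, and the 95% interval of 57 of the 59 genes lay within a 2-fold change in either direction (1 on the log2 scale). Kcnk12 (0.32 to 1.10) was 1 of the 2 exceptions. For 26 genes it lay within 0.5. Data were simulated for this comparison of 29003 probes, with independent noise per array, a preset number of changed probes and no header date effect. In them a difference of 0.5 was called in 6.4% of cases and a difference of 1 in 78.8%. Recovery in the real data was not measured.

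**Figure D1:**
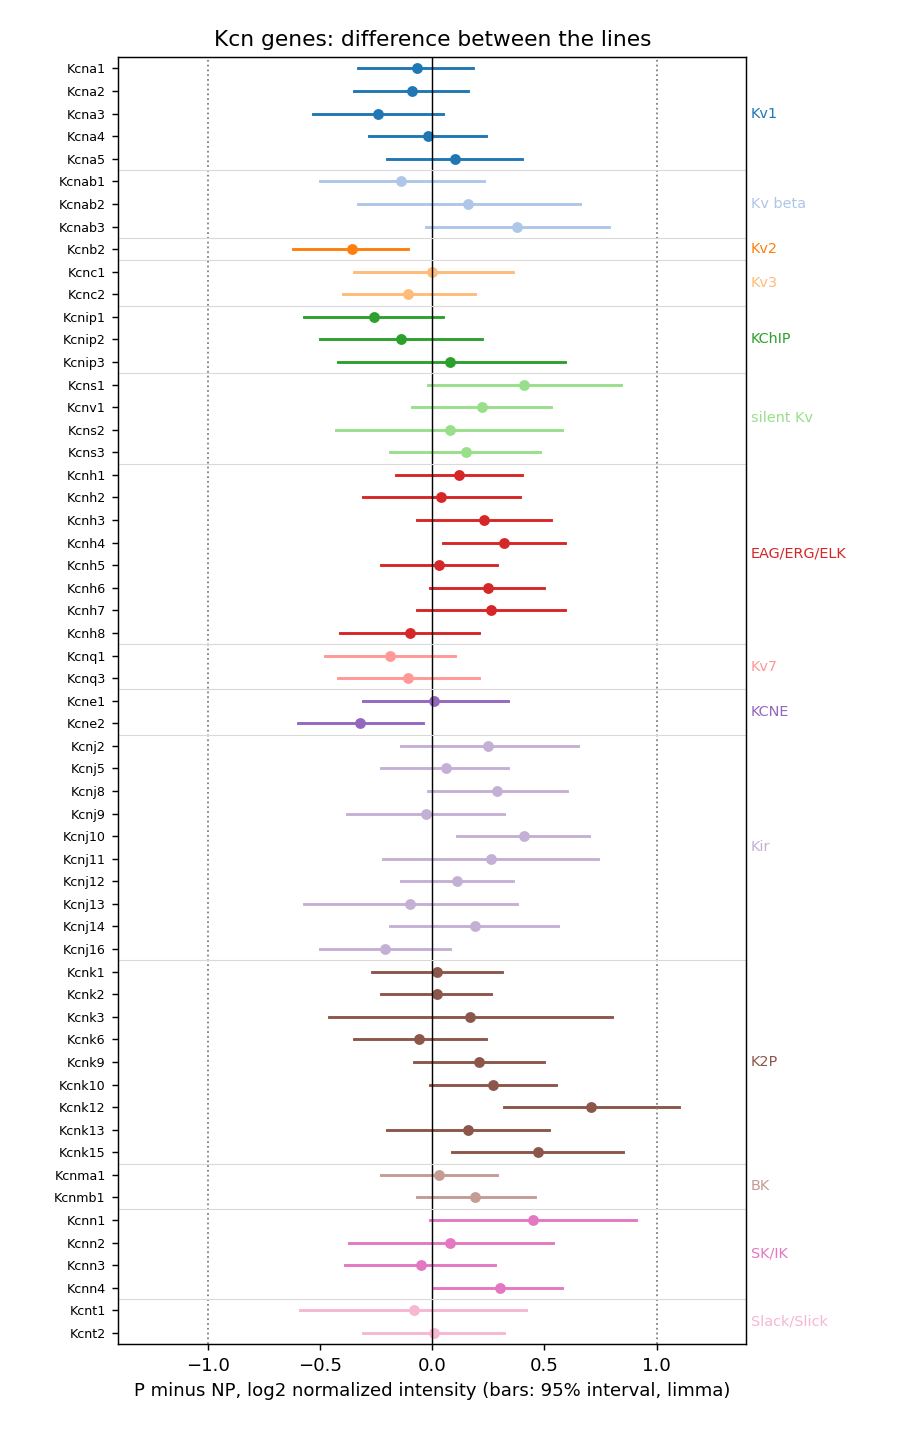
Difference between the lines for 57 of the 59 tested Kcn genes, P minus NP in log2 normalized intensity (x axis), by gene and subfamily (y axis). Points are limma estimates, bars their 95% intervals, and dotted lines a 2-fold change; of the intervals drawn, that of Kcnk12 passes a dotted line and the others do not.

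K2P channels give neurons and glia their leak conductance. Of 9 K2P genes, 8 had a difference above 0 and none was called, with a median of 0.17. Kcnk12 encodes a member of the THIK pair and read 8.74, 9.15, 9.01 and 8.91 in P 1 to P 4 and 8.39, 8.50 and 7.82 in NP 2 to NP 4. Every P value lay above every NP value, and NP 4 was the lowest. The difference was 0.71 ± 0.18 (SE, adjusted p = 0.23), or 1.64-fold. With any single array left out it stayed between 0.50 and 0.85. Kcnk15, a relative of the acid-sensitive TASK channels, read 8.09, 8.60 and 8.01 in P 1 to P 3 and 7.82, 7.72 and 7.75 in NP 2 to NP 4. Its spot on P 4 was not usable, so the fit used 6 arrays, and the 3 P values lay above the NP values (0.47 ± 0.17, adjusted p = 0.37). Without P 2, the highest of them, the difference was 0.29.

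The other K2P genes lay closer to 0 in this fit. The mechanosensitive channel Kcnk2 read 9.68, 9.70, 9.65 and 9.75 in P 1 to P 4 and 9.54, 9.77 and 9.72 in NP 2 to NP 4, and the lines overlapped (0.02 ± 0.11). Its relative Kcnk10 was dim, above background on 4 of 4 P and 2 of 3 NP arrays. Kcnk10 differed by 0.27 ± 0.13, and by 0.63 in the authors' values, where Kcnk15 differed by 0.58. Kcnk13, which forms the THIK pair with Kcnk12, differed by 0.16 ± 0.16. The acid-sensitive Kcnk9 read 6.50, 6.51, 6.57 and 6.82 in P 1 to P 4 and 6.54, 6.39 and 6.24 in NP 2 to NP 4 (0.21 ± 0.13). In the authors' values Kcnk9 differed by 0.48. The sign was below 0 for Kcnk6 (-0.06 ± 0.13). Kcnk1 differed by 0.02 ± 0.13 with its brighter probe.

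Of 11 Kir genes on the array 10 were tested, and 7 of them had a difference above 0, with a median of 0.15. Kcnj10, the channel through which astrocytes take up potassium, read 8.35, 8.27, 8.20 and 8.63 in P 1 to P 4 and 7.99, 8.03 and 7.84 in NP 2 to NP 4. The lines did not overlap. The difference was 0.41 ± 0.13 (adjusted p = 0.332), and within header date 1 it was 0.30 (adjusted p = 0.16). Kcnj16, which forms mixed channels with Kcnj10, read 6.97, 6.81, 6.91 and 7.01 in P 1 to P 4 and 7.16 and 7.11 in NP 2 and NP 3. The P values were the lower ones, and the fit left out NP 4, whose spot was not usable (-0.21 ± 0.13, adjusted p = 0.535). The summed normalized intensity of 7 astrocyte markers ranged from 12400 to 13900 in P and from 12900 to 14200 in NP. Of the 7, 0 were called between the lines, where 0.29% of all tested probes were. Single markers differed by -0.45 (Aqp4) to 0.24 (Slc1a2), with 4 above 0 and 3 below. The part of cell composition in the Kcnj10 values was not tested.

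Kcnj5 and Kcnj9 encode subunits of the G protein-gated channel that ethanol opens. Kcnj3 and Kcnj6, which encode its other subunits, were not matched to a probe, so these values do not cover the whole channel. Kcnj5 read 9.11, 9.29, 8.89 and 8.92 in P 1 to P 4 and 8.97, 9.06 and 8.96 in NP 2 to NP 4. Kcnj9 read 7.90, 7.54, 7.34 and 7.58 in P 1 to P 4 and 7.87, 7.54 and 7.45 in NP 2 to NP 4. The lines overlapped for both, with differences of 0.06 ± 0.13 and -0.03 ± 0.16 and 95% intervals of -0.23 to 0.34 and -0.38 to 0.32. Kcnj11 and Kcnj8 form the pore of ATP-sensitive channels, the latter mainly in vessels. Kcnj11 read 9.77, 9.87, 9.03 and 9.35 in P 1 to P 4 and 9.55, 9.25 and 8.93 in NP 2 to NP 4 (0.26 ± 0.22, adjusted p = 0.642). Kcnj8 read 7.96, 7.80, 7.62 and 7.44 in P 1 to P 4 and 7.44, 7.36 and 7.44 in NP 2 to NP 4 (0.29 ± 0.14, adjusted p = 0.449). In Kcnj8 P 4 stood at the upper end of NP and the other P rats above it. The summed intensity of 3 markers of endothelium and pericytes ranged from 2400 to 3090 in P and from 2400 to 2700 in NP, and their part in the Kcnj8 values was not tested. The choroid plexus channel Kcnj13 differed by -0.10 ± 0.21. The strong rectifiers Kcnj2 (0.25 ± 0.18), Kcnj12 (0.11 ± 0.11) and Kcnj14 (0.19 ± 0.17) were not called. Kcnj2 was dim, above background on 4 of 4 P and 2 of 3 NP arrays. It differed by 0.82 in the authors' values and by 0.12 with header date as a block. With any single array left out it stayed between 0.03 and 0.39.

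The Kcnh genes encode the EAG, ERG and ELK channels. Of 8 genes, 7 had a difference above 0, with a median of 0.17. Kcnh4, an ELK channel, read 9.23, 9.32, 9.18 and 9.50 in P 1 to P 4 and 9.05, 9.01 and 8.90 in NP 2 to NP 4. All P values were above the NP values (0.32 ± 0.12, adjusted p = 0.382). The ERG channel Kcnh6 did not overlap either, at 9.09 to 9.32 in P against 8.87 to 9.03 in NP (0.25 ± 0.11, adjusted p = 0.441). Kcnh3, also of the ELK group, read 11.30, 11.50, 11.24 and 11.39 in P 1 to P 4 and 10.88, 11.27 and 11.24 in NP 2 to NP 4, with P 3 inside the NP range (0.23 ± 0.13, adjusted p = 0.51). Kcnh7 differed by 0.26 ± 0.15 in a fit without NP 4, whose spot was not usable. The EAG channel Kcnh5 read 6.88, 7.02, 6.78 and 6.72 in P 1 to P 4 and 6.85, 6.75 and 6.86 in NP 2 to NP 4 (0.03 ± 0.12). Values for Kcnh1 (0.12 ± 0.13), Kcnh2 (0.04 ± 0.16) and Kcnh8 (-0.10 ± 0.14) were also near 0.

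Of the 54 Kcn genes with a value on all arrays, 6 had lines that did not overlap (11.1%), against 13.3% of all such probes. Kcnk12, Kcnj10, Kcnh4 and Kcnh6 read higher in every P rat than in any NP rat, while Kcnb2 and Kcne2 read lower. The share is near that of all probes.

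The Kv1 subunits sit along axons and hold back firing, and 4 of 5 Kv1 genes had a difference below 0, with a median of -0.07. Kcna1 read 11.01, 11.06, 11.24 and 10.98 in P 1 to P 4 and 11.07, 11.19 and 11.19 in NP 2 to NP 4. Kcna2 read 10.45, 10.32, 10.59 and 10.48 in P 1 to P 4 and 10.48, 10.65 and 10.53 in NP 2 to NP 4. The lines overlapped for both (-0.07 ± 0.12 and -0.09 ± 0.12). Kcna3 read 6.22, 6.35, 6.10 and 6.02 in P 1 to P 4 and 6.57, 6.26 and 6.41 in NP 2 to NP 4. These were dim signals, above background on 2 of 4 P and 3 of 3 NP arrays (-0.24 ± 0.13, adjusted p = 0.482). The lowest value above background of any probe was 6.02 on NP 4 and 6.21 on P 2, with the other arrays between. At this level the size depended on the processing, with -0.73 in the authors' values and -0.12 with header date as a block, and neither was called. Kcna4 (-0.02 ± 0.12) and Kcna5 (0.10 ± 0.14) were not called. Kcna4 was also dim, above background on 2 of 4 P and 3 of 3 NP arrays, with -0.12 in the authors' values.

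Kv2 channels carry the delayed rectifier of the neuronal soma. Kcnb2 read 7.97, 8.04, 8.25 and 8.22 in P 1 to P 4 and 8.49, 8.46 and 8.50 in NP 2 to NP 4. All P values were below the narrow NP range (-0.36 ± 0.12, adjusted p = 0.331). Kv3 subunits let fast-spiking neurons repolarise quickly. Kcnc1 read 11.90, 11.90, 11.89 and 11.37 in P 1 to P 4 and 11.93, 11.57 and 11.77 in NP 2 to NP 4 (0.00 ± 0.16). Kcnc2 read 7.13, 6.97, 7.04 and 6.72 in P 1 to P 4 and 7.07, 6.94 and 7.20 in NP 2 to NP 4 (-0.11 ± 0.13). The lines overlapped in both.

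The silent subunits make no channel alone and join Kv2 subunits. All 4 of them had a difference above 0, with a median of 0.18. Kcns1 read 8.56, 8.23, 7.67 and 7.91 in P 1 to P 4 and 7.81, 7.65 and 7.59 in NP 2 to NP 4. P 1 and P 2 stood farthest above NP, P 4 stood just above it, and P 3 lay within the NP range (0.41 ± 0.19, adjusted p = 0.443). Kcnv1 read 9.48, 9.57, 9.10 and 9.25 in P 1 to P 4 and 9.03, 9.16 and 9.20 in NP 2 to NP 4, with P 3 inside the NP range (0.22 ± 0.14). Kcns3 differed by 0.15 ± 0.15 and Kcns2 by 0.08 ± 0.23. With header date as a block 3 of the 4 silent subunits had a difference above 0, and Kcns3 was at -0.06.

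Among partners of Kv channels, Kcne2 is abundant in choroid plexus. It read 8.03, 7.91, 8.12 and 7.94 in P 1 to P 4 and 8.20, 8.23 and 8.53 in NP 2 to NP 4. All P values were below NP (-0.32 ± 0.13, adjusted p = 0.391), and within header date 1 the difference was -0.24 (adjusted p = 0.248). The summed intensity of 4 choroid plexus markers ranged from 4190 to 5360 in P and from 4230 to 6760 in NP, highest in NP 2. Of the 4, 0 were called between the lines, where 0.29% of all tested probes were, with differences of -0.18 to 0.29. Their part in the Kcne2 values was not tested. Kcne1, another subunit of the family, was dim, above background on 2 of 4 P and 1 of 3 NP arrays. It differed by 0.01 ± 0.15, and by -0.14 in the authors' values. Kcnip1, a calcium sensor that binds Kv4 channels, read 8.97, 8.81, 8.64 and 8.81 in P 1 to P 4 and 9.22, 8.80 and 9.17 in NP 2 to NP 4, and the lines overlapped (-0.26 ± 0.14, adjusted p = 0.482). Kcnip2 was dim, above background on 1 of 4 P and 2 of 3 NP arrays. It differed by -0.14 ± 0.16, and by -0.44 in the authors' values. Kcnip3 read 7.14, 6.73, 7.02 and 7.65 in P 1 to P 4 and 7.02 and 7.08 in NP 2 and NP 3, and its fit left out NP 4, whose spot was not usable (0.08 ± 0.22). Of the Kv beta subunits, Kcnab2 read 8.61, 8.13, 7.66 and 7.69 in P 1 to P 4 and 8.10, 7.71 and 7.77 in NP 2 to NP 4 (0.16 ± 0.22). Kcnab3 read 7.12, 6.77, 6.93 and 7.24 in P 1 to P 4 and 6.92, 6.77 and 6.21 in NP 2 to NP 4 (0.38 ± 0.18, adjusted p = 0.45). The lines overlapped for both, and without NP 4 the difference of Kcnab3 was 0.17. Kcnab1 read 7.05, 6.51, 7.13 and 7.13 in P 1 to P 4 and 7.18, 6.97 and 7.13 in NP 2 to NP 4 (-0.14 ± 0.16).

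The remaining groups hold few genes. The M-current subunit Kcnq3 read 7.74, 7.72, 7.39 and 7.45 in P 1 to P 4 and 7.67, 7.49 and 7.89 in NP 2 to NP 4 (-0.11 ± 0.14). The epithelial and cardiac Kcnq1 read 6.59, 6.57, 6.36 and 6.50 in P 1 to P 4 and 6.60, 6.56 and 6.94 in NP 2 to NP 4 (-0.19 ± 0.13). Both overlapped between the lines. The BK pore gene Kcnma1 read 7.21, 7.15, 7.03 and 6.97 in P 1 to P 4 and 7.04, 7.18 and 6.97 in NP 2 to NP 4. The P and NP ranges were nearly the same, and the difference was 0.03 ± 0.12, with a 95% interval of -0.23 to 0.29. Its second probe GE22003 was not tested, being above background on 2 NP arrays and 0 P arrays. It read 5.98, 5.91, 6.18 and 6.11 in P 1 to P 4 and 7.26, 6.47 and 5.91 in NP 2 to NP 4, with NP 2 apart from all others. The BK beta subunit Kcnmb1 read 6.66, 6.66, 6.58 and 6.70 in P 1 to P 4 and 6.50, 6.27 and 6.60 in NP 2 to NP 4 (0.19 ± 0.12).

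Of the calcium-activated channels, the IK channel Kcnn4 read 7.99, 8.02, 7.74 and 8.01 in P 1 to P 4 and 7.62, 7.82 and 7.49 in NP 2 to NP 4. P 3 fell below NP 3, so the lines overlapped (0.30 ± 0.13, adjusted p = 0.418). The SK channel Kcnn3 read 8.15, 7.85, 8.15 and 8.43 in P 1 to P 4 and 8.34, 8.24 and 8.01 in NP 2 to NP 4 (-0.05 ± 0.15). Kcnn1 differed by 0.45 ± 0.20 in a fit without NP 2, whose spot was not usable, and Kcnn2 by 0.08 ± 0.20. The sodium-activated Kcnt1 read 9.83, 9.81, 9.00 and 9.26 in P 1 to P 4 and 9.51, 9.26 and 9.91 in NP 2 to NP 4, with NP 4 the highest of all (-0.08 ± 0.23). Kcnt2 differed by 0.01 ± 0.14.

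**Figure D2:**
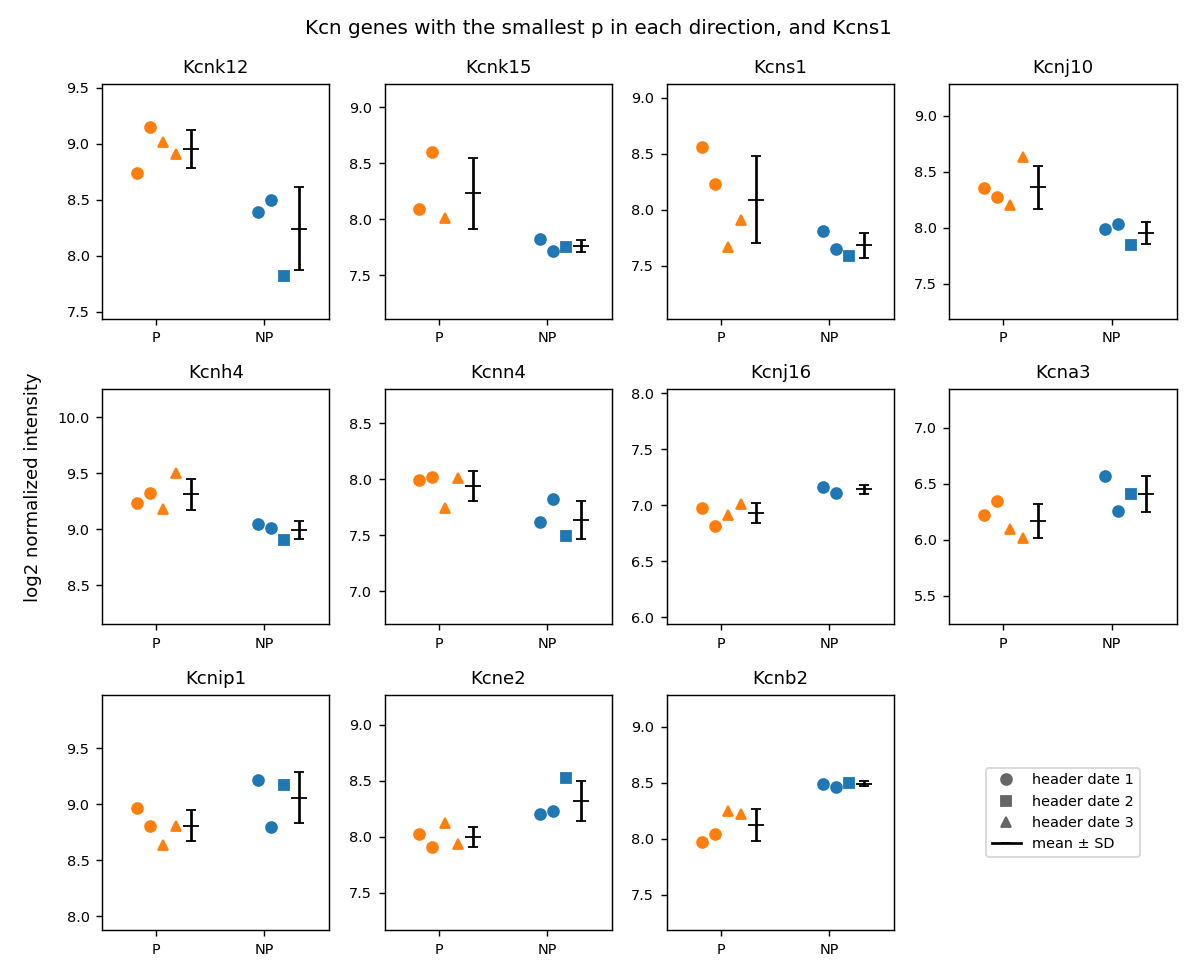
Log2 normalized intensity (y axis) on each array, by line (x axis), for the 5 Kcn genes with the smallest p in each direction and Kcns1; symbols mark the header date, black bars the mean ± SD, and all panels span the same height. The lines are apart in Kcnk12, Kcnk15, Kcnj10, Kcnh4, Kcnb2, Kcne2 and Kcnj16, among the arrays with a value, and overlap in the others.

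More Kcn genes passed the test among the P rats than between the lines, as did more of all probes (13.8% against 0.29%). The fits rest on different arrays and spreads, so their counts are not directly comparable. The 2 P arrays of header date 1 were compared with the 2 of header date 3, a comparison added after the data were seen, in which date and rat cannot be told apart. By limma 11 of 59 Kcn genes were called (18.6%), against 13.8% of all probes and 15.6% of the named genes. Of the 11, 10 were higher and 1 lower in P 1 and P 2, while over all probes 6.31% were called higher and 7.53% lower. The median difference was 0.15 over the Kcn genes and 0.05 over the named genes.

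Kcnk3, an acid-sensitive K2P channel, read 9.36, 9.48, 8.54 and 8.22 in P 1 to P 4 and 9.01, 8.61 and 8.57 in NP 2 to NP 4. All NP values lay between the pairs of P rats. The pairs differed by 1.04 ± 0.16 (adjusted p = 0.00607), and the lines by 0.17 ± 0.29. Kcns2, a silent subunit, read 8.41, 8.34, 7.57 and 7.52 in P 1 to P 4 and 8.04, 7.87 and 7.75 in NP 2 to NP 4, and its NP values again fell between the pairs (0.83 ± 0.14, adjusted p = 0.00731).

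Among those also higher in P 1 and P 2 were the beta subunit Kcnab2 (0.70 ± 0.17), Kcnt1 (0.69 ± 0.15), Kcnj11 (0.63 ± 0.15), Kcns1 (0.61 ± 0.16), Kcnj14 (0.50 ± 0.14) and Kcnk13 (0.48 ± 0.14), with adjusted p from 0.0172 to 0.0471. The SK channel Kcnn2 read 6.74, 6.38, 7.14 and 7.33 in P 1 to P 4 and 6.84, 6.87 and 6.72 in NP 2 to NP 4. It was lower in P 1 and P 2 than in P 3 and P 4 (-0.68 ± 0.16, adjusted p = 0.0254). These calls were lost in other processing: with plain background subtraction 0 Kcn genes and 0 of all probes were called, and in the authors' values 0 Kcn genes and 2 probes. When the variance prior was allowed to follow intensity in the authors' values, 7 Kcn genes and 3295 probes were called. Of 37 cell type markers tested between the pairs, 4 were called higher and 2 lower in P 1 and P 2 (16.2%). This share is near that of all probes (13.8%) and of the named genes (15.6%). A difference above 0 was found in 3 of 7 astrocyte, 2 of 4 neuron, 1 of 6 oligodendrocyte and 4 of 7 microglia markers. It was found in 2 of 4 endothelium and pericyte, 2 of 4 choroid plexus, 3 of 3 pituitary and pineal and 2 of 2 erythroid markers. The astrocyte markers Gfap (0.71) and Aldh1l1 (0.56) were called higher, while Aqp4 (-0.48) was not called. The neuron marker Nefm (-1.21) was called lower, while Nefl (0.08), Uchl1 (-0.01) and Snap25 (0.40) were not called. Snap25 was dim, above background on 3 of 7 arrays. The part of the markers' cell types in the Kcn values was not tested.

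**Figure D3:**
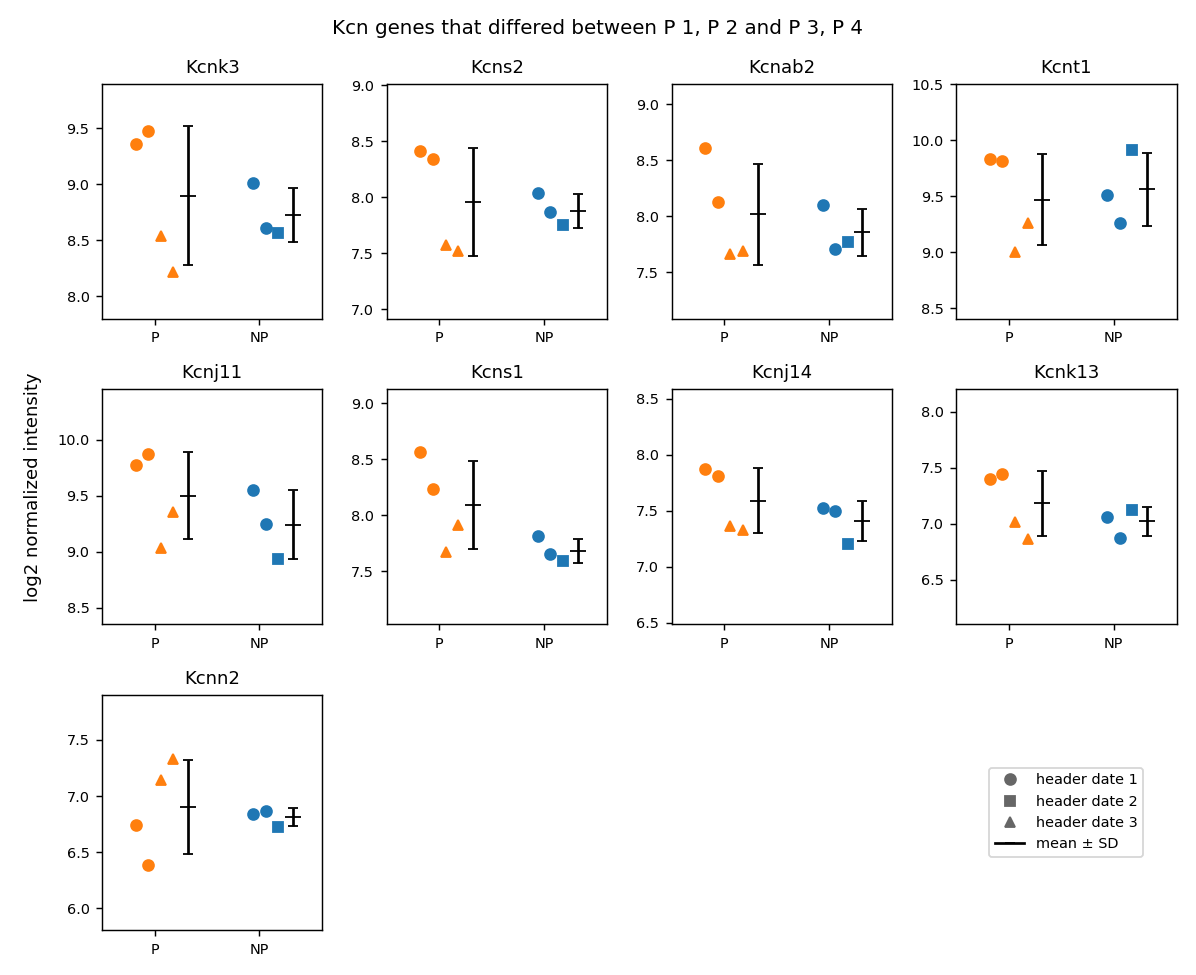
Log2 normalized intensity (y axis) on each array, by line (x axis), for 9 of the 11 Kcn genes called between P 1, P 2 (circles) and P 3, P 4 (triangles); black bars are the mean ± SD of a line. Circles lie above triangles among the P rats in every panel except Kcnn2, where they lie below.

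Each array was also described over the Kcn genes together. As the median over 54 genes of the deviation from each gene's own mean, P 1 and P 2 stood at 0.09 and 0.10, P 3 and P 4 at -0.04 and -0.05, and NP 2 to NP 4 at 0.02, -0.05 and -0.09. P 3 and P 4 lay within the NP range. Over the named genes P 1 and P 2 were also the highest, at 0.05 and 0.04, with P 3 and P 4 at -0.02 and 0.02 and NP 2 to NP 4 at 0.00, -0.01 and -0.03. The Kv1 genes did not follow this order, with medians of -0.05, 0.01, 0.09 and -0.12 in P 1 to P 4. Without P 1 and P 2, the median P minus NP difference of the Kcn genes was -0.02. With P 3 and P 4 left out it was 0.15, and 9 Kcn genes were called (15.3%, where 11.5% of all probes were), 8 higher and 1 lower in P. Over all probes 4.12% were called higher and 7.35% lower. Among those higher were Kcnk12 (0.71), Kcnk15 (0.58), Kcnk3 (0.69), Kcns1 (0.71), Kcns2 (0.49), Kcnj8 (0.46) and Kcnn1 (0.71). Kcnb2 was lower (-0.48), and the adjusted p of the 9 ran from 0.0156 to 0.0469.

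**Figure D4:**
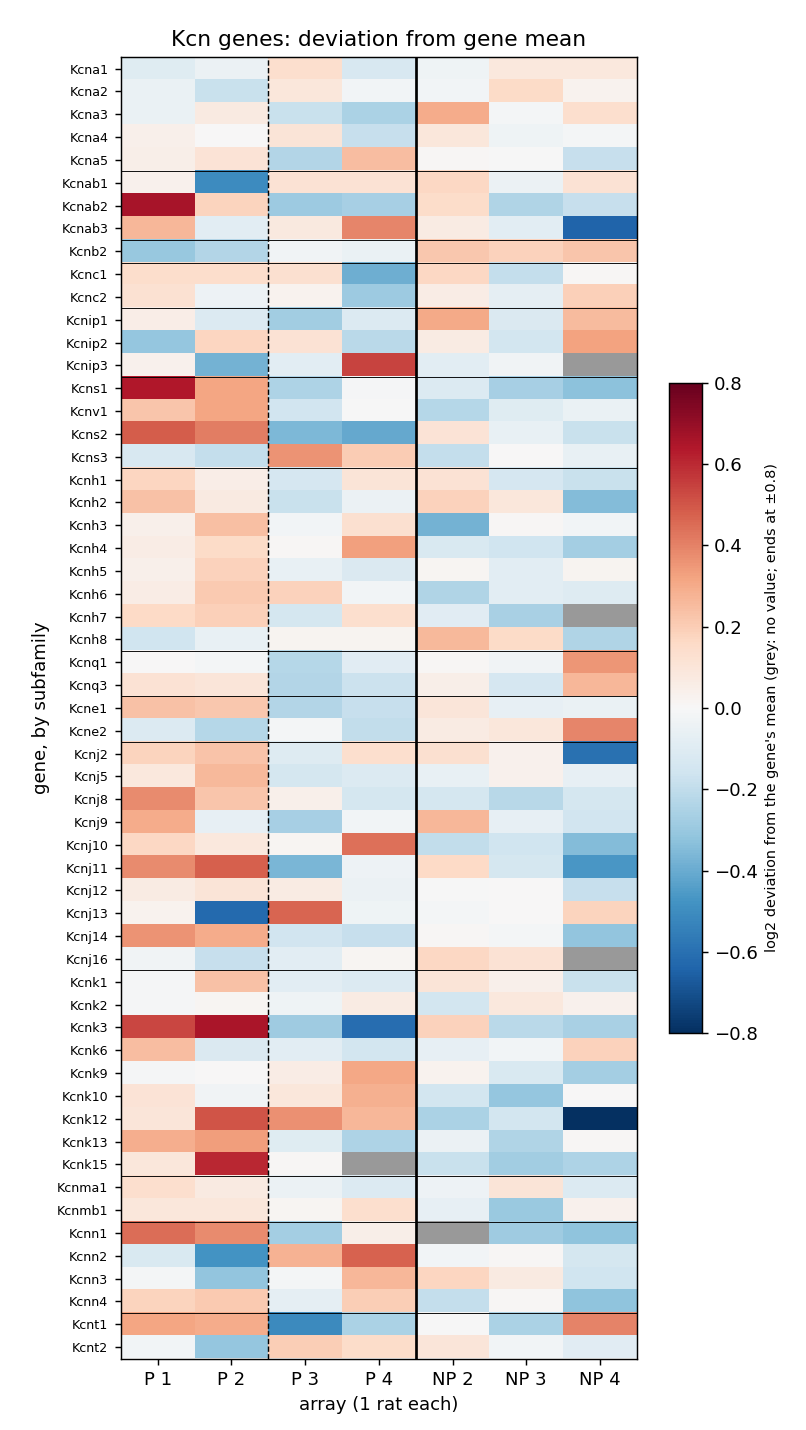
Deviation of each array (x axis) from the gene's own mean over its arrays, in log2 units by colour, for 57 of the 59 tested Kcn genes grouped by subfamily (y axis); grey cells have no usable spot, and the colour scale has fixed ends. Of 54 genes, 40 and 36 were above their mean in P 1 and P 2, 22 and 19 in P 3 and P 4, and 32, 20 and 20 in NP 2 to NP 4.

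Header date 1 holds 2 arrays of each line, so the lines could be compared within it. By limma 2 Kcn genes were called there, where 6.47% of all probes were, 1.88% higher and 4.59% lower. The silent subunit Kcns1 was higher in P (0.67, adjusted p = 0.0378). The SK channel Kcnn1 was also higher (0.69), but its NP 2 spot was not usable, so NP 3 was its only NP array there. With header date as a block, a fit whose line term rests on the same 4 arrays, 1 Kcn gene was called where 5.72% of all probes were, 1.65% higher and 4.07% lower. It was Kcns1 (0.67 ± 0.16, adjusted p = 0.04), while Kcnn1, again with NP 3 as its only NP array of date 1, was not called. Within date 1 the difference of Kcnk12 was 0.50 (adjusted p = 0.0868) and that of Kcnb2 -0.47 (adjusted p = 0.0552). With the block all 9 K2P genes had a difference above 0, with a median of 0.27, against 0.05 for the named genes, of which 57.6% were above 0. The second probes of Kcnk2 (-0.11) and Kcnk9 (-0.21) were below 0 in that fit.

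For 18 genes a second probe was tested. The line differences of both probes had the same sign in 15 of the 18 genes, and Kcnb2 and Kcnc2 were among the 3 exceptions. Across these genes, which share their arrays, the differences correlated with r = 0.50, and the median gap between probes was 0.14. Kcnk1 had the widest gap. Its brighter probe GE1272808 read 11.95, 12.19, 11.87 and 11.85 in P 1 to P 4 and between 11.78 and 12.06 in NP. Its second probe GE20774 read 8.98, 8.96, 8.77 and 9.21 in P 1 to P 4 and 8.58, 8.31 and 8.37 in NP 2 to NP 4. The lines overlapped on the first and were apart on the second, with differences of 0.02 ± 0.13 (adjusted p = 0.97) and 0.56 ± 0.13 (adjusted p = 0.223).

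Kcnb2 had the next widest gap. Its second probe GE1109872 read 7.22, 7.09, 7.04 and 6.94 in P 1 to P 4 and 6.86, 7.10 and 7.17 in NP 2 to NP 4. The lines overlapped on it (0.03 ± 0.13), whereas on GE19741, described above, they were apart. For Kcne2 the probes gave -0.32 ± 0.13 and -0.11 ± 0.14. For Kcnj11 they gave 0.26 ± 0.22 and 0.32 ± 0.14. The second probe of Kcnj11 read 9.60, 9.74, 9.26 and 9.30 in P 1 to P 4 and 9.16, 9.08 and 9.21 in NP 2 to NP 4, so every P value was above the NP range, and it was called with header date as a block (0.55, adjusted p = 0.0381).

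Among the other genes, second probes gave -0.07 ± 0.12 for Kcna1, -0.26 ± 0.22 for Kcnab1, 0.08 ± 0.11 for Kcnc2, 0.05 ± 0.26 for Kcnh3, 0.00 ± 0.11 for Kcnh5 and 0.22 ± 0.13 for Kcnip3. They gave 0.16 ± 0.12 for Kcnj5, 0.17 ± 0.14 for Kcnj8, 0.09 ± 0.13 for Kcnk2, 0.07 ± 0.15 for Kcnk9, 0.26 ± 0.18 for Kcnmb1, -0.24 ± 0.16 for Kcnn3 and -0.25 ± 0.15 for Kcnq3. Over the arrays, the probes of a gene correlated with a median r of 0.60, from -0.63 for Kcna1 to 0.91 for Kcnab1. Between the pairs of P rats, the probes of the ELK channel Kcnh3 gave 0.09 and 0.96.

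**Figure D5:**
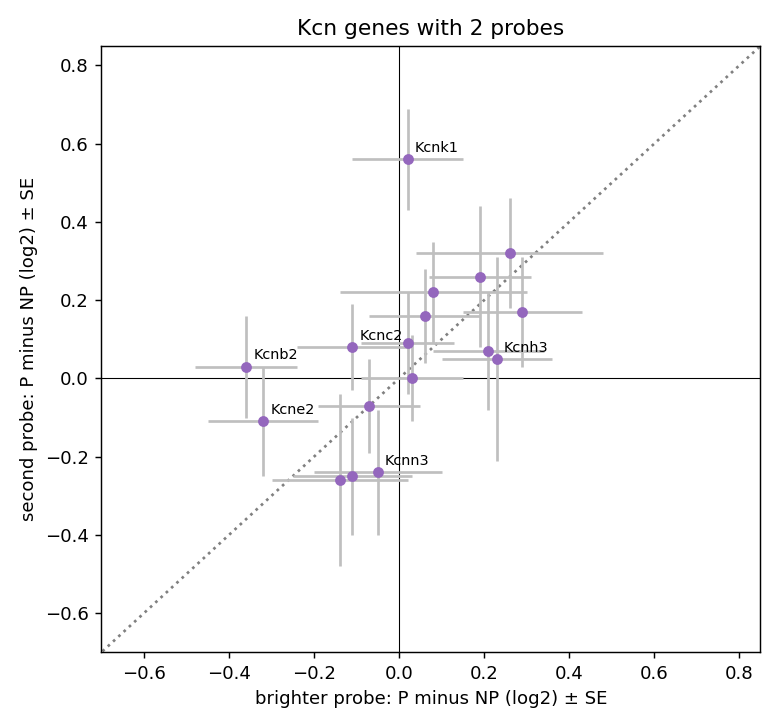
P minus NP difference (log2) ± SE of the brighter probe (x axis) and the second probe (y axis) for 17 of the 18 Kcn genes with 2 tested probes; the dotted line marks equal values. Kcnk1 and Kcnb2 lie farthest from it.

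Genes whose products work with these channels were described from a list of 39 symbols that do not start with Kcn, of which 23 were tested. None was called between the lines by limma, and their median difference was 0.01, with 12 above 0 and 11 below. Slc12a2, a cotransporter that brings sodium, potassium and chloride into cells, had the lowest value (-0.36 ± 0.19, adjusted p = 0.479) and was called lower in P with header date as a block (-0.49, adjusted p = 0.0482), as were 4.07% of all probes. Within header date 1, on the same 4 arrays, it was not called (-0.49, adjusted p = 0.0517). Slc12a5, which extrudes chloride with potassium from neurons, differed by 0.22 ± 0.15. The sulfonylurea receptor Abcc8, partner of Kcnj11, differed by 0.18 ± 0.21. The 6 sodium-potassium pump genes ran from -0.13 to 0.21, and the 4 Hcn genes, which carry the hyperpolarisation-activated current, from -0.11 to 0.12. Between the pairs of P rats 7 of the 23 were called (30.4%, where 13.8% of all probes and 15.6% of the named genes were), 5 higher and 2 lower in P 1 and P 2. The pump subunit Atp1b2 (0.84, adjusted p = 0.00727), Abcc8 (0.74) and Cntnap1 (0.58) were among those higher. Lgi1 (-0.65) and Slc12a2 (-0.57) were lower.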

How the data were processed

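Whole brain RNA of 7 rats (4 P, 3 NP) was amplified, labelled with biotin and hybridised to 1-colour arrays, 1 per rat, per the labels' protocols. The deposited scanner files hold spot and local background intensity, and their expression value is the spot mean minus the background median, as tested on the files. The authors' deposited log2 values correlated with log2 scaled intensity at r = 0.9985 to 0.9999, with medians of -0.0693 to 0.0467. Their scaling is not stated in the labels or file headers.

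Here spot intensity was background-corrected with normexp (offset 50), quantile normalized and taken to the log2 scale with limma 3.58.1 in R 4.3.3. The offset draws the differences of dim probes toward 0. Control spots (240 positive, 256 negative) were left out. Probes above background on at least 3 of 7 arrays were kept (29008, of which 29003 could be fitted). The lines were tested by a linear model per probe (lmFit, eBayes), with Benjamini-Hochberg adjustment over all fitted probes and a threshold of 0.05. In the data simulated without a header date effect 3.38% of calls were false, and the share in the real data is not known. Tables were handled with pandas 2.3.3 and figures drawn with matplotlib 3.10.9.

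Genes were named by matching accessions to a RefSeq table of GRCr8, used for names only: 7207 probes named 6046 genes. The members and all gene lists were chosen with earlier results of these data known. Values per array are given for genes called with header date as a block, the 5 genes with the smallest p in each direction, the brightest member and the one with the smallest p of each subfamily, and genes with 2 probes. Other genes with values per array (Kcna2, Kcnj9, Kcnk3, Kcns2, Kcnn2) and the comparison of P rats were added after their values were seen. The single values of some genes are not reported here, in text or figures; they remain in counts and medians over genes. Alternatives covered background correction, normalization, filter, variance model, replicate number, header date, probe and arrays left out.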

Additional observations from a re-analysis of the deposited data

Results flagged for a closer look

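In 3 named Kcn genes 1 P array stood apart from the other P arrays, by its gap to the nearest of them over the range of the group. Kcnn4, the IK channel, read 7.74 in P 3 and 7.99 to 8.02 in the other P rats. Kcnc1, a Kv3 subunit, read 11.37 in P 4 and 11.89 to 11.90 in the others. Kcnab1, a Kv beta subunit, read 6.51 in P 2 and 7.05 to 7.13 in the others. Of 32 sets of P values tested, chance at 1 in 20 would give about 1.6. The NP line, with 3 arrays, was not tested in this way.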

How the results depend on the processing

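Of the 59 Kcn genes, 0 were called over all 7 arrays, 1 with header date as a block, 2 within header date 1 and 9 without P 3 and P 4. Of all probes, 0.29%, 5.72%, 6.47% and 11.5% were called in these fits. Within header date 1, NP 3 was the only NP array for Kcnn1. In the other alternatives, including each single array left out, 0 Kcn genes were called. Their median difference, 0.08, ran from 0.02 to 0.10 with single arrays left out, lowest without P 1, and was -0.02 without P 1 and P 2. With the replicate number as a block it was 0.02, with 0 Kcn genes and 104 of all probes called. Same-numbered rats did not deviate together (r = 0.169, 0.011 and -0.039), and not every array correlated best with its own number. Of 556 values of 33 single genes in 17 alternatives, 513 kept sign and side of the threshold, 7 were newly called and 36 turned sign, in 15 genes. With header date as a block and within header date 1 the turned values were 0.15 (Kcnq3), 0.01 (Kcnq1), 0.43 (Kcnt1), 0.04 (Kcnc2) and -0.12 (Kcnip3). Without P 1 and P 2 they were -0.18 (Kcnab2), -0.13 (Kcnc1), -0.05 (Kcnj11), -0.09 (Kcnk1 and Kcnj5), -0.06 (Kcnma1), -0.07 (Kcnh5), 0.09 (Kcnn3) and 0.04 (Kcnab1). Without P 3 and P 4 they were 0.05 (Kcnq3), 0.26 (Kcnt1) and -0.12 (Kcnip3). With the replicate block they were -0.03 (Kcnab2), -0.04 (Kcnc1), -0.01 (Kcnma1) and -0.18 (Kcnip3). With array weights they were -0.01 (Kcnc1), -0.05 (Kcnk1), -0.003 (Kcnma1) and 0.04 (Kcnt1). Among differences that kept their sign, Kcna3 (-0.24) was -0.73 in the authors' values and -0.69 with plain background subtraction, and Kcnab3 (0.38) was 0.73 in the authors' values and 0.10 with header date as a block. In the authors' values Kcnc1 was -0.02, with median scaling and with no scaling Kcnh5 was -0.01, and with no background correction Kcnma1 was -0.003. Second probes gave 0.03 (Kcnb2) and 0.08 (Kcnc2). With single arrays left out 19 of 231 values turned sign, in 11 genes, and 0 were newly called. These genes ranged from -0.20 to 0.01 (Kcnab1), -0.03 to 0.28 (Kcnab2), -0.09 to 0.14 (Kcnc1), -0.03 to 0.07 (Kcnh5), -0.09 to 0.22 (Kcnip3), -0.02 to 0.11 (Kcnj5), -0.07 to 0.07 (Kcnk1), -0.05 to 0.06 (Kcnk2), -0.02 to 0.09 (Kcnma1), -0.15 to 0.05 (Kcnn3) and -0.24 to 0.09 (Kcnt1). The cause of these changes was not tested.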
